A study of Mus musculus with 3 samples.

Results

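Lamins and their partners at the inner nuclear membrane were followed from naive CD4 T cells into 3 polarised cultures of mouse helper T cells. The group holds 7 genes: the 3 lamin genes Lmna, Lmnb1 and Lmnb2, the lamin B receptor Lbr, the SUN-domain genes Sun1 and Sun2, and emerin, Emd. Their probes were found by RefSeq accession: 10 of 39429 probes on the array, and 7 of 19751 genes that could be named. The genes were selected on their log2 ratios and channel signals in these same arrays, so the values below describe them and test nothing.

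RNA was compared on 3 Agilent 2-colour arrays, all on 1 slide. Each array set 1 culture, labelled with Cy5, against naive cells, labelled with Cy3, without a dye swap. The mice were C57BL/6 and 6 to 8 weeks old, and naive CD4 T cells were sorted from their spleens by magnetic beads. For the cultures they were stimulated over 3 days by plate-bound antibody to CD3e and soluble antibody to CD28, each at 10 µg/ml. Th2 cells, the helper cells of type 2 immunity, received IL-2 at 1 ng/ml, IL-4 at 5 ng/ml and antibody to interferon gamma at 2 µg/ml. Th9 cells, which make IL-9, received IL-2 at 0.2 ng/ml, IL-4 at 1 ng/ml, TGF-beta 1 at 2 ng/ml and the interferon gamma antibody at 5 µg/ml. Induced regulatory T cells (iTreg) received IL-2 at 0.4 ng/ml, TGF-beta 1 at 5 ng/ml, and antibodies to interferon gamma and IL-4 at 5 µg/ml each. Naive cells were not stimulated, and no stimulated culture without polarising cytokines was analysed, so a ratio against naive holds stimulation and medium together. Each group is 1 sample, and the labels do not say how many mice were pooled. The array position and the culture cannot be told apart. Without a dye swap, a dye effect of a single gene cannot be told apart from its ratio against naive, but it cancels in a difference between cultures. How many extracts of naive RNA the arrays used is not given in the labels.

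The nuclear lamina is a meshwork of intermediate filament proteins beneath the inner nuclear membrane. B-type lamins are made by nearly all cells, whereas A-type lamins, all spliced from Lmna, vary with cell type and are low in resting lymphocytes. SUN proteins cross the inner membrane and bind nesprins of the outer membrane to form the LINC complex, which couples the lamina to the cytoskeleton. Emerin binds A-type lamins and the chromatin protein BAF, and the lamin B receptor tethers heterochromatin and is also a sterol reductase.

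On these arrays 48.9% to 51.0% of spots were well above background in the culture channels and 53.0% to 54.1% in the naive channels, and 0 spots were saturated. The median error that the scanner software gave for a log2 ratio was 0.217 to 0.225. A value with ± below carries that error for its own spot (n = 1 array), and covers error within 1 array only. Of the T cell markers Cd3e, Cd3g, Cd4, Cd28 and Lck, all 5 were above background in every channel. Several lineage markers followed the labels, with Il4 at log2 5.08 in Th2, Il9 at 6.52 in Th9 and Foxp3 at 3.49 in iTreg relative to naive. Il5, Il13 and Gata3 were likewise highest in Th2 cells, and Il2ra in iTreg cells. Irf4, a Th9 marker, did not follow, at 3.87 in Th2, 3.56 in Th9 and 3.59 in iTreg. Ctla4, a Treg marker, stood at 3.28, 4.18 and 3.52. In Th9 cells Il4 (1.04), Gata3 (1.01) and Foxp3 (1.28) were also past 2-fold. Of the Th9 markers, Spi1 was at background in all channels. Fewer cells of a type and less RNA per cell cannot be told apart in such bulk RNA.

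The sequences upstream of the gene starts are shown for the genes whose ratios stood furthest apart, Lmna and the pair Sun1 and Sun2. They are the 250 bases before the start, 5′ to 3′ on the gene's strand, from RefSeq on GRCm38.p6. RefSeq lists a pair of windows for Lmna, at chr3:88503353-88503602 and chr3:88493313-88493562, both on the minus strand. The window of Sun1 is chr5:139200387-139200636 on the plus strand (the first of a pair listed) and that of Sun2 is chr15:79742537-79742786 on the minus strand. Capitals mark matches to the CCAAT box (CCAAT) and the GC box (GGGCGG) on either strand.
Lmna window 1: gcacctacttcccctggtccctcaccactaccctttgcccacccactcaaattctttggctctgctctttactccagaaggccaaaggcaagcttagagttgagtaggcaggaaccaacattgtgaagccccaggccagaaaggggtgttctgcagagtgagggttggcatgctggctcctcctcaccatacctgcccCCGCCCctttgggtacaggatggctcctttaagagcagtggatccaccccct
Lmna window 2: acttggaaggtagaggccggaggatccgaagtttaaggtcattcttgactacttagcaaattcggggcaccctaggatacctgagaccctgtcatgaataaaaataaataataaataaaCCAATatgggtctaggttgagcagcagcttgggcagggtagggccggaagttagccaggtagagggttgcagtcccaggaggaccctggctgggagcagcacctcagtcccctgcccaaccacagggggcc
Sun1: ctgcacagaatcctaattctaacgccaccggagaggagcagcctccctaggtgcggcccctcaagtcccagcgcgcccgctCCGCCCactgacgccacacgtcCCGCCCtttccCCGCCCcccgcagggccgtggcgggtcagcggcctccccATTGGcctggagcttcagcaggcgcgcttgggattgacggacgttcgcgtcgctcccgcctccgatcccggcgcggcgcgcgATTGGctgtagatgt
Sun2: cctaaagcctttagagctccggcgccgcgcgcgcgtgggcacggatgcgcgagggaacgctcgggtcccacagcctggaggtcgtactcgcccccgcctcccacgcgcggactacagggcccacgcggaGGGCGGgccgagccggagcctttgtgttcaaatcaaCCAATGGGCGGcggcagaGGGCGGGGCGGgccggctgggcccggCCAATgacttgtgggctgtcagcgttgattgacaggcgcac
The Sun1 window held 2 CCAAT boxes and 3 GC boxes among 30 CG dinucleotides. The Sun2 window held 2 and 4 among 31, with the last pair of GC boxes sharing a base. The Lmna windows held 0 and 1 CCAAT boxes and 1 and 0 GC boxes, with 1 and 4 CG dinucleotides. The second Sun1 window, not printed above, held 1 CCAAT box and 0 GC boxes, with 1 CG dinucleotide. Of 32851 such windows of all genes, 33.8% held a CCAAT box and 32.7% a GC box. A match is a run of letters and says nothing of binding in these cells.

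The first question was how the A-type lamin gene differed between the cultures. Lmna was higher than naive in Th2 and Th9 cells and lower than naive in iTreg cells. After subtraction of background its signal was 1553 in Th2, 2254 in Th9 and 136 in iTreg cells, against 355, 357 and 340 in the naive channels of the same 3 arrays. The naive channels thus lay within 5.0% of each other. These signals, and those of the other genes below, are before dye normalisation, so a culture is compared with naive by the ratio. The normalised log2 ratio against naive was 1.75 ± 0.27 in Th2 (3.35-fold) and 2.27 ± 0.31 in Th9 (4.81-fold). In iTreg it was -1.04 ± 0.25 (2.06-fold lower), close to the threshold of 2-fold used here for a call, and -1.46 by the scanner software's own ratio. The order of levels was Th9, Th2, naive, iTreg. The gap between Th9 and Th2 cells was 0.52 ± 0.41 and lay within 2 errors, while the other neighbours differed by more than that.

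Set directly against each other, iTreg cells had less Lmna than either other culture. The difference of log2 ratios was -2.79 ± 0.37 for iTreg minus Th2 (6.91-fold) and -3.31 ± 0.40 for iTreg minus Th9 (9.92-fold). The naive channels of these arrays differed by at most 0.03, and the Cy5 channels alone gave -2.81 and -3.34. Of 10473 genes measured on the iTreg and Th9 arrays, 12 differed by as much or more in either direction, Lmna included, and 76 of 10541 did so for iTreg against Th2. Lmna was the 1 gene of 10351 measured on all arrays (0.00966%) that exceeded naive by 2-fold or more in both Th2 and Th9 cells and lay 2-fold or more below it in iTreg cells. This count rests on an iTreg ratio just past 2-fold. It also leaves out genes at background in the iTreg channel. Il4, for example, stood at 5.08 in Th2 and 1.04 in Th9. In iTreg cells it was at background, which bounds its ratio at -0.81 or lower.

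**Figure D1:**
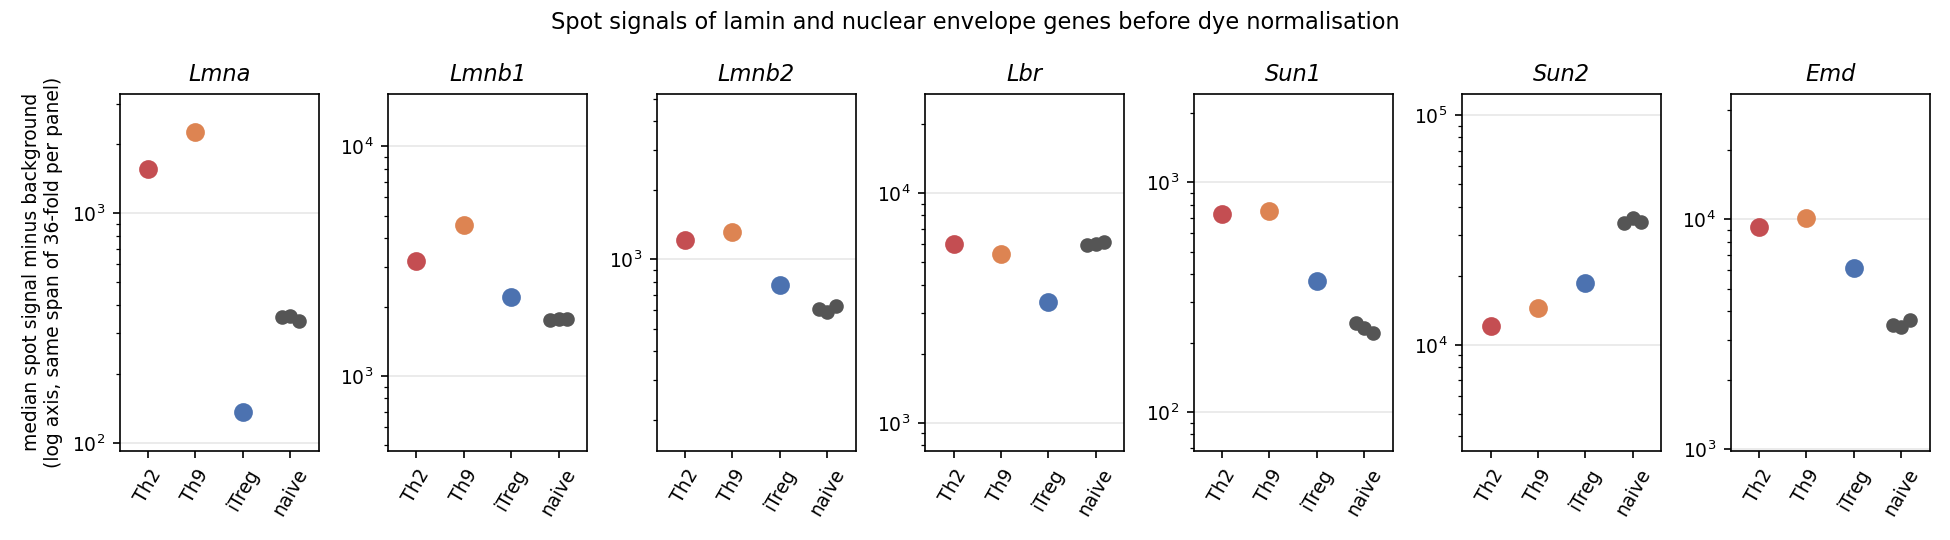
Spot signals minus background (log axis, arbitrary scanner units) for the 7 genes in the Th2, Th9 and iTreg channels (Cy5, 1 array each) and in the naive channels of the same 3 arrays (Cy3, black). Lmna reached 2254 in Th9 and 136 in iTreg cells around a naive level of 340 to 357, and Sun2 was below naive in all cultures. Signals are before dye normalisation, so a culture and naive are compared by the ratios instead.

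Few genes ran like Lmna over the 3 ratios. The 2 nearest of 10351 genes by Euclidean distance were Tmem191c, at a distance of 0.68 log2 units, and Shb, an adaptor of tyrosine kinase signalling, at 1.01. Tmem191c stood at 1.82 in Th2, 2.09 in Th9 and -0.39 in iTreg. Shb stood at 1.86, 1.52 and -0.38, so neither was as low as Lmna in iTreg cells. The nearest gene of every other member lay within 0.09, namely Cntrob for Lmnb1 and Usp19 for Lmnb2, Slc39a11 for Lbr, Matr3 for Sun1, Slc15a2 for Sun2 and Rpl7a for Emd. The next nearest were Prdm2 for Lmnb1, Pdcd2l for Lmnb2, Armc6 for Lbr, Ttll3 for Sun2 and Prune1 for Emd, at 0.043 to 0.15.

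**Figure D2:**
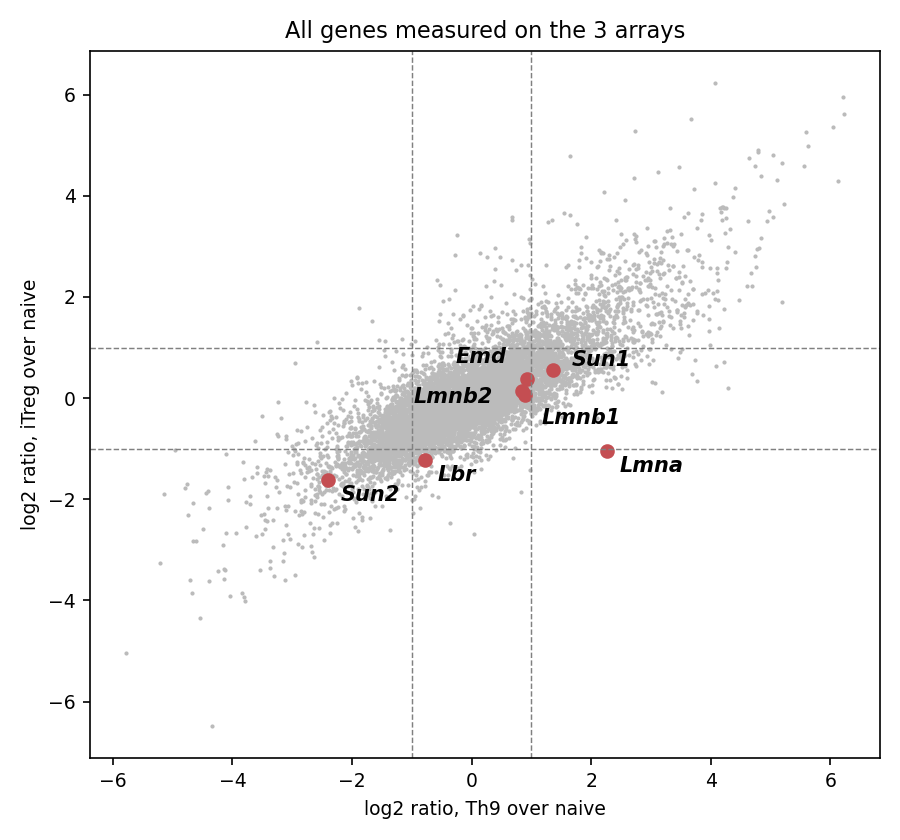
Log2 ratio of iTreg over naive (vertical) against that of Th9 over naive (horizontal) for 10351 genes measured on all 3 arrays (grey), with the 7 genes in red and dashed lines at 2-fold. Lmna stands at 2.27 and -1.04, beyond both dashed lines in opposite directions. Both ratios are taken against naive cells, so no correlation is drawn from the cloud.

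The members' counts were read against the share of all measured genes past the same threshold. Of the 7 members, 2 were at least 2-fold higher in Th2 (Lmna and Sun1) and 1 was lower (Sun2), next to 14.8% and 14.5% of 10946 measured genes (29.3% in either direction). The same genes met the rule in Th9, where 15.5% and 15.6% of 10775 genes did (31.1% together). In iTreg 0 were higher and 3 lower (Lmna, Lbr and Sun2), next to 10.2% and 8.15% of 11113 genes (18.4% together). Higher in all 3 cultures by 2-fold were 0 members and 7.28% of genes. Median ratios of the members were 0.69 in Th2, 0.89 in Th9 and 0.06 in iTreg.

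Between cultures, Lmna was the 1 member past 2-fold. Th9 against Th2 had 0 of 7, where 2.66% of 10461 genes were called (1.28% higher and 1.38% lower). iTreg against Th2 had 0 higher and 1 lower, with 6.86% and 6.69% of genes (13.5% together), and iTreg against Th9 likewise, with 6.81% and 6.3% (13.1% together). In both iTreg comparisons 6 of 7 members were below 0, with medians of -0.54 and -0.70 against 0.00 and 0.01 for all genes. Sun2 was the exception. With each array centred on its median in place of loess, the same 6 members were past 2-fold in both iTreg comparisons, where the median of all genes was itself at -0.59 and -0.37. That centring put 2831 of 10541 genes at least 2-fold lower and 239 higher in iTreg against Th2. Against Th9 it put 1764 of 10473 lower and 320 higher.

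B-type lamins differed less. Lmnb1 is spotted 10 times on each array, which gives its ratio a spread that no other gene of the group has. Its mean signal was 3182 in Th2, 4570.4 in Th9 and 2208 in iTreg cells, against 1756, 1777 and 1780.4 in the naive channels. The 10 spot ratios ran from log2 0.36 to 0.45 in Th2, from 0.83 to 0.97 in Th9 and from -0.002 to 0.17 in iTreg, so the ratios of the arrays did not overlap spot by spot. Spots of 1 array share 1 hybridisation and are no replicates of a culture. The mean ratios were 0.41 (SD 0.026 over spots) in Th2, 0.89 (SD 0.044) in Th9 and 0.06 (SD 0.049) in iTreg, with scanner errors of 0.21, 0.22 and 0.20. No ratio reached 2-fold, but median centring gave 0.88 in Th2 and 1.16 in Th9, the second past it. Between neighbours in the order Th9, Th2, iTreg, naive, no gap exceeded 2 scanner errors.

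Lmnb2, the other B-type lamin gene, had signals of 1214, 1311 and 777 in Th2, Th9 and iTreg cells, against 607, 591 and 627 in naive cells. Its ratios were 0.69 ± 0.21, 0.85 ± 0.22 and 0.15 ± 0.21, again in the order Th9, Th2, iTreg, naive with no gap between neighbours beyond 2 errors. With median centring the Th2 ratio of Lmnb2 was 1.00, just at 2-fold, and the Th9 ratio 0.94. That scaling turned the iTreg ratios of Lmnb1 and Lmnb2 to -0.18 and -0.14. It also put iTreg minus Th2 at -1.06 for Lmnb1 and -1.14 for Lmnb2, and iTreg minus Th9 at -1.34 and -1.08, against -0.36, -0.54, -0.83 and -0.70 with loess.

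Relative to the B-type lamin genes, Lmna moved up in Th2 and Th9 cells and down in iTreg cells. The change of Lmna relative to that of Lmnb1 on the same array was 1.33 ± 0.34 in Th2 and 1.38 ± 0.38 in Th9, against -1.10 ± 0.32 in iTreg. Relative to Lmnb2 it was 1.06 ± 0.35, 1.42 ± 0.38 and -1.19 ± 0.32. Median centring gave 1.16, 1.20 and -1.08 for the first of these. Such values compare changes from naive. They do not compare the amounts of the lamins, since signals of different probes have no common scale.

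Of the enzymes that process lamins, none reached 2-fold. Farnesyltransferase subunits Fnta and Fntb, the endoprotease Rce1, the methyltransferase Icmt and Zmpste24, which cleaves prelamin A, were all 5 measured, and 0 of 5 were called in any culture, where 29.3% of all genes were in Th2, 31.1% in Th9 and 18.4% in iTreg. Zmpste24 was the lowest of them in Th9 (-0.68 ± 0.21) and in Th2 (-0.42 ± 0.21), and stood at -0.21 ± 0.21 in iTreg, where Rce1 was the lowest (-0.34). Fnta ranged from -0.45 to 0.07 over the cultures, Fntb from -0.13 to 0.23 and Icmt from -0.28 to -0.10. The medians of this list were -0.25 in Th2, -0.45 in Th9 and -0.21 in iTreg, beside -0.02, -0.01 and -0.02 for all measured genes.

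The SUN-domain genes stood on opposite sides of naive in every culture. Sun2 had signals of 12065 in Th2, 14492 in Th9 and 18655 in iTreg cells, against 33774, 35518 and 34096 in naive cells. Its log2 ratios were -2.58 ± 0.31 (5.98-fold lower), -2.39 ± 0.30 (5.26-fold lower) and -1.62 ± 0.25 (3.08-fold lower). Sun2 was thus among the 623 genes of 10351 (6.02%) that were at least 2-fold lower in all cultures. The order of levels was naive, iTreg, Th9, Th2, where the gap between naive and iTreg exceeded 2 errors and the other gaps did not. Median centring gave -1.44, -1.48 and -1.38. The step from iTreg to the other cultures (0.96 ± 0.40 for iTreg minus Th2 and 0.77 ± 0.39 for iTreg minus Th9) shrank to 0.06 and 0.10 with that scaling.

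Sun1 was higher by 2-fold in Th2 and Th9 cells, by its brighter probe. Its signal was 727 in Th2, 747 in Th9 and 373 in iTreg cells, against 245, 232 and 221 in naive cells. The ratios were 1.23 ± 0.24 (2.35-fold), 1.36 ± 0.25 (2.57-fold) and 0.55 ± 0.22 (1.46-fold). A second probe of Sun1 was at background in all naive channels and above it only in Th9 cells, with ratios of 0.37, 0.43 and -0.02. With both probes averaged, Sun1 was at 0.80 in Th2 and 0.90 in Th9, short of 2-fold. The order of Sun1 levels was Th9, Th2, iTreg, naive, and all neighbours but Th9 and Th2 differed by more than 2 errors. The difference of ratios was -0.69 ± 0.33 for iTreg minus Th2 and -0.82 ± 0.33 for iTreg minus Th9. The change of Sun1 relative to Sun2 was 3.81 ± 0.40 in Th2, 3.76 ± 0.39 in Th9 and 2.17 ± 0.33 in iTreg. With median centring it was 2.91, 2.87 and 1.69.

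Nesprins, the outer membrane partners of the SUN proteins, differed among themselves. Syne2, which encodes the giant protein nesprin-2, stood at -2.32 ± 0.33 in Th2, -3.10 ± 0.42 in Th9 and -2.52 ± 0.36 in iTreg. Syne1, its paralogue, stood at -0.97, -0.99 and -0.71, within 2-fold of naive. Syne3, which links to plectin and intermediate filaments, was at 1.51 ± 0.27, 1.59 ± 0.26 and 0.73 ± 0.23. Syne4, the remaining nesprin, was at 0.64, 0.65 and 0.62, within 2-fold. With the torsins, ATPases of the envelope, and their cofactors, 8 of 9 genes of this list were measured. In Th2 and in Th9 cells 1 was at least 2-fold higher (Syne3) and 2 were lower (Syne2 and the torsin cofactor Tor1aip1, at -1.05 and -1.26). In iTreg cells 0 were higher and 1 was lower. Of all genes, 14.8% were higher and 14.5% lower in Th2, 15.5% and 15.6% in Th9, and 10.2% and 8.15% in iTreg. List medians were -0.62 in Th2, -0.84 in Th9 and -0.57 in iTreg.

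**Figure D3:**
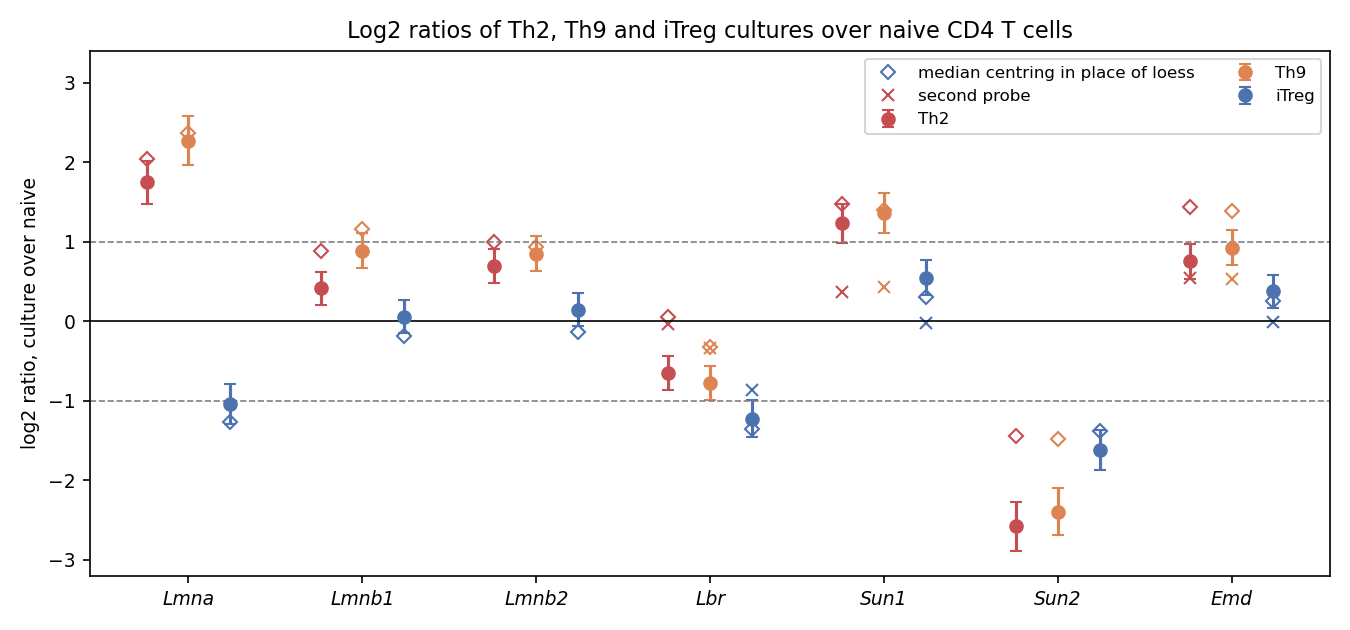
Log2 ratio of each culture over naive for the 7 genes (filled circles, bars showing ± the scanner software's error, n = 1 array), with open diamonds for median centring and crosses for the second probe of Lbr, Sun1 and Emd. Dashed lines mark 2-fold. Lmna in iTreg lies at -1.04, opposite to 1.75 in Th2 and 2.27 in Th9, and Sun2 is below -1 in every culture by either scaling.

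Lbr, the lamin B receptor, was lowest in iTreg cells. Its signal was 6019 in Th2, 5448 in Th9 and 3348 in iTreg cells, against 5973, 6032 and 6123 in naive cells. The log2 ratios were -0.65 ± 0.21, -0.78 ± 0.22 and -1.23 ± 0.23, the last 2.34-fold lower. Its second probe gave -0.03, -0.33 and -0.86. Median centring gave 0.05, -0.33 and -1.36, so the sign in Th2 cells depended on the scaling, while the iTreg ratio stayed past 2-fold. In the order naive, Th2, Th9, iTreg, the gap between naive and Th2 exceeded 2 errors and the other gaps did not.

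Most genes of the sterol pathway that Lbr serves were higher than naive, unlike Lbr. Of 11 genes of late cholesterol synthesis, all measured, 9 were at least 2-fold higher in each culture and 0 were lower. The shares of all genes were 14.8% higher and 14.5% lower in Th2, 15.5% and 15.6% in Th9, and 10.2% and 8.15% in iTreg. Tm7sf2, the other sterol reductase for the same step, stood at 1.48 in Th2, 1.94 in Th9 and 1.42 in iTreg. The highest was Lss, lanosterol synthase, in Th2 (2.87) and Sqle, squalene epoxidase, in Th9 (2.60) and iTreg (1.81). The lowest was Ebp, a sterol isomerase, at -0.14, -0.11 and 0.06.

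Emd, which encodes emerin, had signals of 9228 in Th2, 10178 in Th9 and 6159 in iTreg cells, against 3473, 3412 and 3636 in naive cells. Normalised ratios were 0.75 ± 0.22, 0.92 ± 0.22 and 0.37 ± 0.21, none of them 2-fold, while median centring put Th2 (1.44) and Th9 (1.38) past it. The second probe gave 0.55, 0.53 and -0.01. Between neighbours in the order Th9, Th2, iTreg, naive no gap exceeded 2 errors.

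Emerin's relatives with a LEM domain, and BAF, which they bind, were closer to naive. Of 6 genes, all measured, Ankle1, a nuclease, was at least 2-fold higher in Th2 (1.01 ± 0.27) and Th9 (1.13 ± 0.27), and stood at 0.83 ± 0.26 in iTreg. Calls among all genes were 29.3% in Th2, 31.1% in Th9 and 18.4% in iTreg. The other 5 listed genes were within 2-fold in every culture. They include Tmpo, the gene of the LAP2 proteins (0.03, 0.36 and 0.15), Lemd2 (0.13, 0.02 and -0.13), Lemd3 (-0.24, -0.15 and -0.18) and Ankle2 (0.21, -0.04 and 0.08). Banf1, the gene of BAF, was at 0.30 and 0.49 in Th2 and Th9 and at -0.61 in iTreg. Its difference, iTreg minus Th9, was -1.10.

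Other inner membrane genes were lowest in iTreg cells. Of 7 listed, 6 were measured, and 2 were at least 2-fold higher in Th2, 3 in Th9 and 0 in iTreg, with 0 lower. The shares of all genes were 14.8%, 15.5% and 10.2% higher, and 14.5%, 15.6% and 8.15% lower. Nemp1, a membrane protein of the envelope, stood at 1.90, 1.94 and 0.46, and Lrrc59 at 1.72, 1.82 and 0.18. Nurim, Nrm, stood at 0.99, 1.14 and -0.22, Tmem43 at 0.98, 0.45 and -0.26, Nemp2 at -0.19, -0.17 and -0.34, and Tmem209 at 0.47, 0.33 and -0.73. Ubxn4 was above background in naive channels only. In iTreg cells 5 of the 6 were at least 2-fold lower than in Th2 cells, where 6.69% of all genes were. Against Th9 cells 4 of the 6 were lower, where 6.3% of all genes were.

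Nucleoporins, the subunits of the nuclear pore, moved in both directions. Of 29 listed, 28 were measured on each array. In Th2 cells 7 were at least 2-fold higher and 3 lower, in Th9 cells 6 and 2, and in iTreg cells 0 and 2. The shares of all genes called higher and lower were 14.8% and 14.5% in Th2, 15.5% and 15.6% in Th9, and 10.2% and 8.15% in iTreg, so several of these counts were close to or under them. Aaas, the gene of aladin, led in Th2 (1.58) and Nup43 in Th9 (1.56), while Seh1l was the highest in iTreg (0.67). Nup153, a basket nucleoporin that binds lamins, was the lowest in Th2 (-1.56) and Th9 (-1.42), and stood at -0.40 in iTreg. Nup210, a membrane nucleoporin, was lower on every array (-1.20, -1.28 and -1.71).

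**Figure D4:**
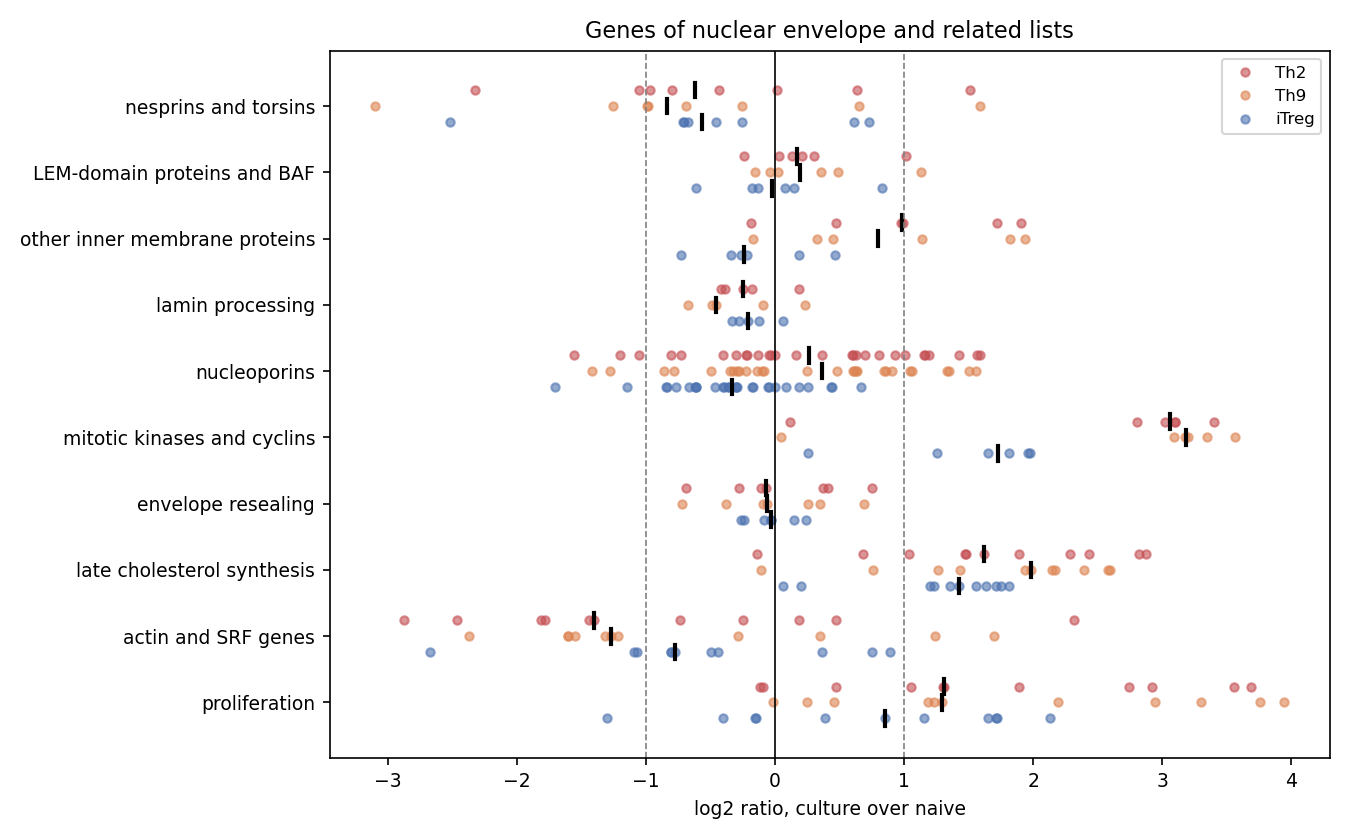
Log2 ratio over naive (horizontal) of measured genes in lists of the nuclear envelope and of related processes, in Th2, Th9 and iTreg cells (1 point per gene, black bars for list medians, dashed lines at 2-fold). In the list of other inner membrane proteins the medians are 0.98 in Th2, 0.79 in Th9 and -0.24 in iTreg.

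Genes that open and close the envelope at mitosis showed 2 behaviours. Of the 7 kinases and cyclins of envelope breakdown 6 were measured, and 5 were at least 2-fold higher in each culture. The shares of all genes that were higher were 14.8% in Th2, 15.5% in Th9 and 10.2% in iTreg. Cdk1, the main mitotic kinase, stood at 3.41 in Th2, 3.57 in Th9 and 1.81 in iTreg, Ccnb1 at 3.10, 3.20 and 1.97, Ccnb2 at 3.10, 3.35 and 1.96, Plk1 at 3.02, 3.18 and 1.65, and Nek2 at 2.81, 3.09 and 1.25. Vrk1, the kinase of BAF, stood at 0.11, 0.04 and 0.26. Aurkb was not well above background in any naive channel, and its log2 ratio was bounded below at 1.48 in Th2 and 1.32 in Th9 cells. Of 7 genes of the ESCRT machinery that reseals the envelope, all measured, 0 reached 2-fold in any culture. Across all genes 29.3% did so in Th2, 31.1% in Th9 and 18.4% in iTreg, so few calls among 7 genes would match those shares. Chmp4b was the highest in each culture (0.75, 0.69 and 0.24). Chmp2a stood at 0.37, 0.35 and 0.15, Vps4a at 0.41, 0.26 and -0.09, and Ist1 at -0.28, -0.38 and -0.24. Vps4b was the lowest in Th2 and Th9 (-0.69 and -0.72) and Spast in iTreg (-0.26), with Chmp7, the adaptor at the envelope, at -0.11, -0.10 and -0.03.

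Proliferation genes were also lower in iTreg cells than in the other cultures. Among all genes, 14.8% were at least 2-fold higher than naive in Th2, 15.5% in Th9 and 10.2% in iTreg. Of 11 proliferation genes listed, all measured, 8 exceeded naive by 2-fold or more in Th2 and in Th9. In iTreg 5 did, with 1 lower (Mcm2, -1.30). The highest were Top2a in Th2 (3.69) and Ccna2 in Th9 (3.95) and iTreg (2.13), and the lowest Pcna in Th2 (-0.12) and Mcm2 in Th9 (-0.01). In iTreg cells 6.69% of all genes were at least 2-fold lower than in Th2 cells, and 6.3% lower than in Th9 cells. Of the proliferation genes, 7 of 11 and 8 of 11 were, with Top2a at -1.97 and -2.04. Their part in the lamin and inner membrane differences was not tested. The actin and SRF genes, to which LINC complexes and emerin connect, were mostly lower with loess. At least 2-fold lower were 6 of 11 in Th2 cells, 7 in Th9 cells and 3 in iTreg cells, next to 14.5%, 15.6% and 8.15% of all genes. At least 2-fold higher were 1, 2 and 0 of them, next to 14.8%, 15.5% and 10.2%. No other scaling is given for this list. For Sun2, another bright gene, median centring moved the Th2 ratio from -2.58 to -1.44. The actin crosslinker Flna was at -2.87, -2.37 and -2.68, and the LIM protein gene Fhl2 at 2.32, 1.70 and 0.75. Vcl, the gene of vinculin, was the highest in iTreg (0.89).

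Scaling changed these calls. Loess keeps the median of all genes near 0 on each array, and centring each array on the median of all its spots moved the median of measured genes to 0.33 in Th2, 0.16 in Th9 and -0.18 in iTreg. Calls higher and lower changed with it to 2781 and 810 (1619 and 1591 with loess) in Th2, 2311 and 1231 (1672 and 1682) in Th9, and 910 and 1330 (1136 and 906) in iTreg. Between cultures they changed to 102 and 244 (134 and 144) for Th9 against Th2, 239 and 2831 (723 and 705) for iTreg against Th2, and 320 and 1764 (713 and 660) for iTreg against Th9. Relative to that shifted median, Lbr in Th2 stood at -0.28, and Lmnb1 and Lmnb2 in iTreg at -0.01 and 0.04. Lmna relative to it stood at 1.71 in Th2, 2.20 in Th9 and -1.09 in iTreg.

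Cells other than CD4 T cells can carry Lmna, so their markers are given beside it. Of 5 myeloid markers 2 were above background in Th2, 3 in Th9 and 2 in iTreg, against 3 to 5 in the naive channels. By the normalised log2 ratio, Itgam, the brightest of them, stood at -1.15 in Th2, -1.18 in Th9 and -0.14 in iTreg. Csf1r stood at -0.60, -0.61 and -0.60, and Adgre1 at 0.05 in Th9. Lyz2 and Cd14 were not well above background in any culture. Of 4 endothelial and stromal markers Cdh5 and Col1a1 were at background throughout, and Col1a2 was above background on the iTreg array only, in both channels. Pecam1 stood at -1.23 in Th2, -1.72 in Th9 and -0.24 in iTreg. Of 4 B cell markers only Cd79b was above background in any channel, at 2.08 in Th2, 2.03 in Th9 and 1.83 in iTreg. Of 4 NK and CD8 T cell markers, Klrd1 stood at -4.21, -4.11 and -1.11. Ncr1 was above background in the naive channels only, which bounds its ratios at -2.28, -2.46 and -2.34 or lower. Cd8b1 stood at 0.06, -0.80 and -0.30, and Cd8a was at background throughout. The part of such cells in the Lmna ratios was not tested.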

How the data were processed

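Median spot and background intensity of both channels came from the deposited scanner output, written per the file headers by Agilent Feature Extraction 11.0.1.1 (version 9.3.2.1 in the submitters' processing notes). The software's log10 ratio of Cy5 over Cy3, deposited in the same files, gave the error of a spot. The authors' deposited series table was found to hold log2 ratios of the processed signals plus a constant for each array (0.056 for Th2, 0.021 for Th9, 0.037 for iTreg), within 0.001 for 99.3% to 99.4% of probes.

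Background was corrected by normexp with an offset of 50, and dyes were balanced by loess array by array, with limma 3.58.1 in R 4.3.3. Control spots and outlier spots had no weight, and outliers were dropped. Python 3.11.15 with pandas 2.3.3 did the rest. Spots of a probe were averaged. RefSeq accessions named 26055 of 39429 probes (GRCm38.p6). Of several probes per gene the brightest was used. A gene was measured when well above background in both channels, and called at 2-fold. With 1 array per culture there is no test and no p-value. Bounds compare a channel with the lowest signal above background in the other. The averaging, probe choice and calling steps were run on simulated ratios with known changes. The noise of that simulation came from the spread of the naive channels. Normalisation, dye effects and differences between samples were left out, so it cannot tell how far the calls would repeat.

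Members and lists were chosen with earlier results of these data known. The text names all members by every probe, the 2 genes nearest to each in the 3 ratios (1 of these is not reported here), and of each list the highest and lowest genes in each culture, or all genes of lists of up to 7. Other named list genes were chosen after their values were seen.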

Additional observations from a re-analysis of the deposited data

Results flagged for a closer look

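Lmna moved in opposite directions against naive cells in different cultures. It was lower in iTreg and higher in Th2, with a difference of -2.79 ± 0.37 (iTreg minus Th2), and lower in iTreg and higher in Th9, with a difference of -3.31 ± 0.40 (iTreg minus Th9). Each culture is 1 sample, so the difference between cultures was not tested beyond the error within an array.

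The second probe of Sun1, not used for the comparisons, had a net signal of 59.0 in Th9 cells, well above background by the scanner software, while the naive channel of that array (45.0) was not. In Th2 and iTreg cells it had 53.5 and 31.0, neither above background.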

How the results depend on the processing

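Of 42 single results (7 genes in 6 comparisons), 35 kept their sign in every setting tried. Of these, 11 were past 2-fold with loess, and 0 of the 90 values recomputed for them turned in sign. The sign exceptions were Lbr in Th2, Lmnb1 and Lmnb2 in iTreg, and Lmnb2, Sun1, Sun2 and Emd in Th9 against Th2. With median centring, members past 2-fold numbered 5 in Th2, 5 in Th9, 6 in iTreg against Th2 and 6 in iTreg against Th9 (3, 3, 1 and 1 with loess). Median centring called 2781 genes higher and 810 lower of 10946 in Th2, and 2311 and 1231 of 10775 in Th9. For iTreg it called 239 and 2831 of 10541 against Th2, and 320 and 1764 of 10473 against Th9. At 1.5-fold the members past it numbered 6, 7, 3 and 5. No count of all genes is given at 1.5-fold or in the settings that follow. Centring on the median of measured genes, an alternative chosen after seeing the data, gave 4 in Th2 and 4 in Th9, with Emd added at 1.11 and 1.22, and 2 for iTreg against Th9, with Lmnb1 added at -1.01. The deposited series table gave 4 in Th9, with Emd at 1.01. The scanner software's ratio for it was 0.99, to which the series table adds its Th9 constant of 0.021. The larger counts at 1.5-fold follow from the lower threshold. The cause of the larger counts with either centring was not tested. With the probes of a gene averaged, 2 members remained past 2-fold in Th2 and in Th9, since Sun1 fell to 0.80 and 0.90 with its dim probe. Lmna ranged from 1.71 to 2.04 in Th2, from 2.20 to 2.50 in Th9 and from -1.46 to -1.04 in iTreg over all settings. No paired analysis was possible because each group has 1 sample.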
